A study of Mus musculus with 6 samples.

Results

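Matricellular glycoproteins are secreted proteins that sit in the extracellular matrix and tune how cells attach to it, and 10 of their genes were described here in cultured mouse lung fibroblasts: the tenascins Tnc and Tnxb, the thrombospondins Thbs1, Thbs2 and Thbs3, Sparc and its relative Sparcl1, Postn, Fn1 and Spon1. They were chosen by name, each had 1 probe set on the array, and they are 10 of 22180 genes tested. 3 wells received 4-hydroxytamoxifen (4OHT, the active metabolite of tamoxifen) at 1 µg/ml for 48 h, and 3 wells received vehicle over that time. All 6 wells held primary fibroblasts from the lungs of adult mice of mixed strain that carried a CreERT transgene, a tamoxifen-activated Cre recombinase expressed in most cell types, together with RSmoM2, an allele from which Cre switches on SmoM2, a constitutively active form of the hedgehog signal transducer Smoothened. No wells without the alleles were analysed here, so exposure to 4OHT, Cre activity and SmoM2 cannot be told apart. The wells were split from isolated cells and carry one shared genotype number in the labels, and no label says that they came from separate animals, so every p-value reflects well-to-well spread, possibly technical alone.

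Tenascin-C is made in development, injury and fibrosis and weakens adhesion to fibronectin, whereas tenascin-X, the product of Tnxb, binds collagen fibrils in mature connective tissue. Thrombospondins bind integrins, CD47 and growth factors, and thrombospondin-1 can release active TGF-beta from its latent complex. SPARC and SPARC-like 1 bind collagen, periostin crosslinks matrix and is induced by TGF-beta in fibroblasts, fibronectin is the scaffold on which much of the matrix is laid down, and spondin-1 is a secreted protein with thrombospondin type repeats.

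Of the 10 genes, 2 were higher in 4OHT wells (Tnxb and Sparcl1), 1 was lower (Postn) and 7 did not pass, at an adjusted p under 0.05 by limma. Over all genes tested 5.38% passed as higher and 6.62% as lower, 12.0% in all (1193 genes higher and 1469 lower). With arrays centred on their medians 3.49% were higher and 7.88% lower (775 and 1748 genes), while 2 of the 10 genes were higher and 2 lower. The 10 log2 fold changes (4OHT minus vehicle) ran from -0.33 to 1.46 with a median of -0.04, against a median of -0.01 over all genes. In 7 of the 10 genes the groups did not overlap, with the 4OHT arrays above in 2 and below in 5. Groups did not overlap in 32.7% of all genes, 15.0% with 4OHT above and 17.8% with 4OHT below. Fewer cells of a type and less RNA per cell cannot be told apart in these bulk samples.

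**Figure D1:**
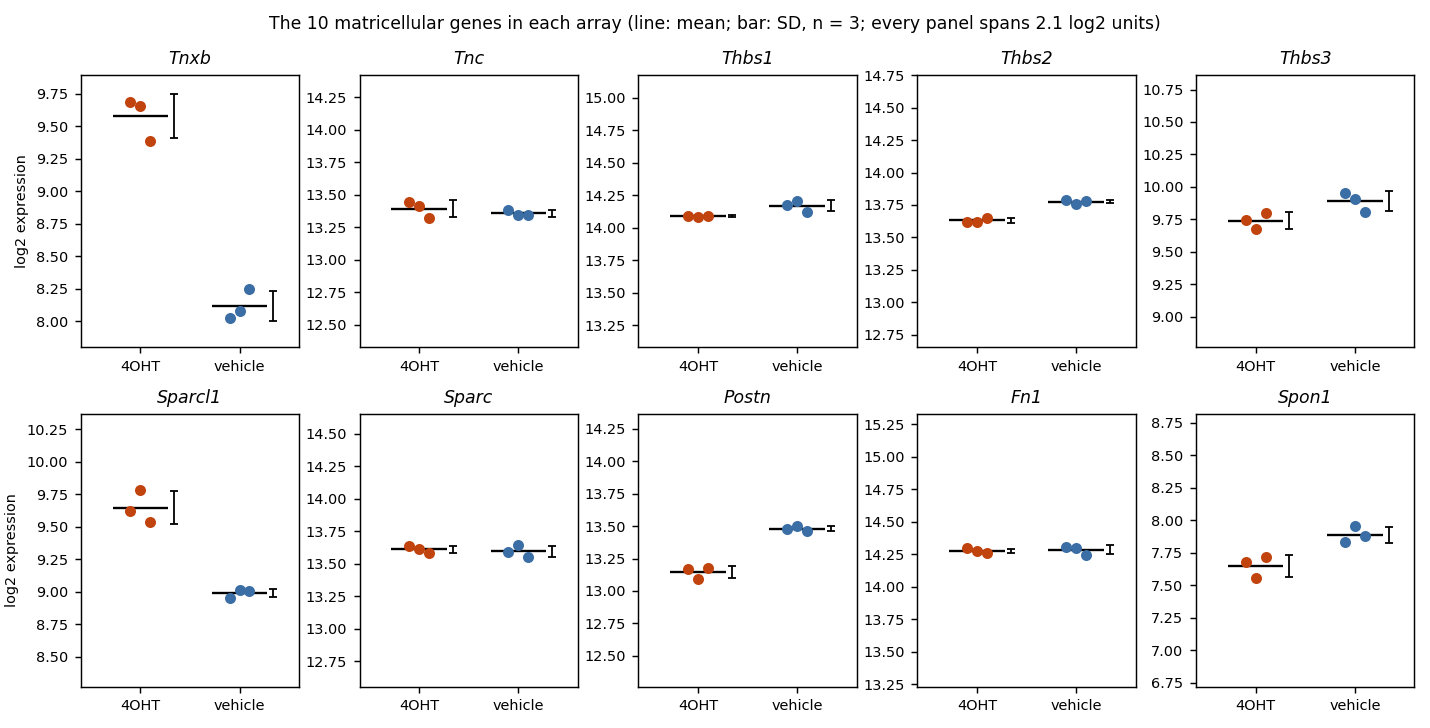
Log2 expression of each of the 10 genes in the 3 4OHT arrays (red, left) and the 3 vehicle arrays (blue, right), with the mean as a line and the SD as a bar (n = 3). Tnxb and Sparcl1 lie higher in 4OHT, Postn lies lower, and Tnc, Sparc and Fn1 overlap.

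RefSeq promoter windows (GRCm38.p6, 250 bases before to 50 after a start site) were found for 6 of the 10 genes, among them the called genes Tnxb and Postn. These windows are shown because the genes moved in opposite directions. Capitals mark a motif found on either strand. The Tnxb window, chr17:34670285-34670584 on the plus strand, held 1 match to TGANTCA, the AP-1 motif, on both strands, and of the 2 Postn windows the one at chr3:54360857-54361156 on the plus strand held 1 match to TATAAA. Both Tnc windows and the Thbs2 window, of genes that did not pass, each held a TATAAA match too.
Tnxb: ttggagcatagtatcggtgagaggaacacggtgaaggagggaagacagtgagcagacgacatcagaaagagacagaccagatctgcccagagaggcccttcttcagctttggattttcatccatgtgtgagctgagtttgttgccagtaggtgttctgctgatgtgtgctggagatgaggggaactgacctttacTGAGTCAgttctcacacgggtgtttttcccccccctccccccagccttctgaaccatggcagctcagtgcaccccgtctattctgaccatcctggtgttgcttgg
Postn: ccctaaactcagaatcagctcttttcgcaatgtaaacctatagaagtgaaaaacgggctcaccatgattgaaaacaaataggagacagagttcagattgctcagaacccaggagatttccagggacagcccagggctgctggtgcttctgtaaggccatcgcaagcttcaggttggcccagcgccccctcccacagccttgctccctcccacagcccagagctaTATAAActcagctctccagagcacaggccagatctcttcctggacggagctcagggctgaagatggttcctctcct
TGANTCA was found in 7.81% and TATAAA in 13.6% of all 32851 RefSeq windows of this length. The other motifs searched, CATTCC (TEAD), CACGTG, ACCACCCA (GLI), GTCTAGAC (SMAD) and the CArG box of SRF, were not found in either printed window. A match describes these letters alone.

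Of the tenascins, Tnxb rose and Tnc did not pass. Tnxb had a log2 expression of 9.69, 9.66 and 9.39 in the 4OHT arrays, against 8.03, 8.08 and 8.25 in the vehicle arrays. Every 4OHT value lay above every vehicle value, and 4OHT replicate 3 was the lowest of its group while vehicle replicate 3 was the highest of its own. Tnxb rose 2.75-fold (log2 fold change 1.46, SE 0.099, 95% interval 1.22 to 1.70, adjusted p = 0.000469), the 8th largest rise among the 22180 genes. The rise was called under every alternative tried, with log2 fold changes of 1.41 to 1.56 when any array was left out. Tnc had a log2 expression of 13.44, 13.41 and 13.32 in the 4OHT arrays, against 13.38, 13.34 and 13.34 in the vehicle arrays, and the groups overlapped. Its log2 fold change was 0.04 (95% interval -0.08 to 0.15, adjusted p = 0.685). Tnc was much brighter than Tnxb, and whether its difference was compressed was not tested. The log2 fold change of Tnxb exceeded that of Tnc by 1.42 (SE 0.099), and an exact two-sided permutation test over the arrays gave p = 0.1, the smallest that 3 against 3 can give. This was 1 of 4 pairs of related genes compared, chosen after their values were seen, and the Benjamini-Hochberg adjusted p over the 4 was 0.133. The remaining tenascin genes, Tnr and Tnn, best known from the nervous system and from bone, had log2 fold changes of -0.12 and -0.19 (adjusted p = 0.565 and 0.118). Both lay under the median of 7.46 over all genes, and neither was shown to be above background.

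Tnxb lies in the MHC class III region among complement and other genes, and 20 genes of that region were compared with it. 1 of the 20 was higher, 1 was lower and 18 did not pass, a share of 10.0% against 12.0% over all genes. C2, which encodes a complement protease, rose by 0.55 on the log2 scale (adjusted p = 0.0131), and Cyp21a1, which encodes steroid 21-hydroxylase, was lower by the test (log2 fold change -0.31, adjusted p = 0.0232). Its log2 expression of 4.97 in 4OHT and 5.28 in vehicle wells was far under the median of 7.46 over all genes, and it was not shown to be above background, so the size of its difference is uncertain. Without 4OHT replicate 2 or vehicle replicate 2 neither passed, and Cyp21a1 did not pass without 4OHT replicate 1 or vehicle replicate 1 either. The measured genes next to Tnxb on the chromosome, Atf6b on one side and C4b on the other, had log2 fold changes of -0.11 and 0.22 (adjusted p = 0.232 and 0.0817). RefSeq also lists Tnxa, a tenascin-X pseudogene, in this region, and Cyp21a2-ps, which overlaps the end of Tnxb. Neither had a probe set of its own among the genes tested, and no probe positions were used here, so whether the Tnxb probe set also reads them was not tested.

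**Figure D2:**
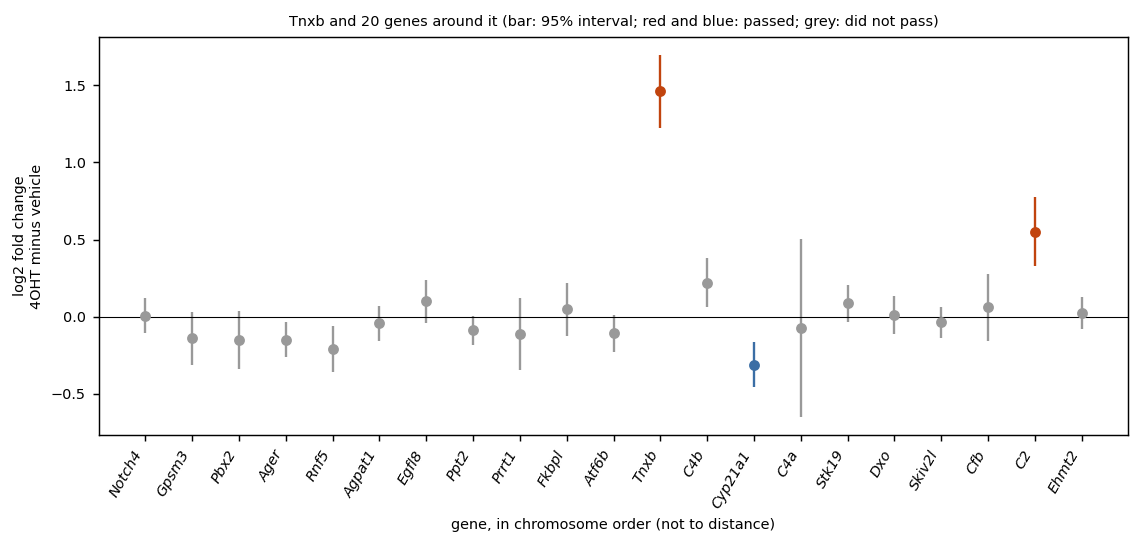
Log2 fold change (4OHT minus vehicle) with its 95% interval for Tnxb and 20 genes around it, in chromosome order without distances. Tnxb stands at 1.46, while C2 (0.55) and Cyp21a1 (-0.31) are the neighbours that passed.

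Over the 6 arrays the genes nearest to Tnxb in pattern, each centred on its own mean, were Kif1a, Chchd10 and Mmp8. Their root mean square distances from Tnxb were 0.082, 0.090 and 0.10 on the log2 scale among 17340 named genes. Kif1a encodes a kinesin, Chchd10 a mitochondrial protein and Mmp8 a collagenase. Their log2 fold changes were 1.44, 1.58 and 1.47, so the measure chose genes with a rise of like size. The vehicle level of Mmp8 (6.98) lay under the median of 7.46 over all genes and was not shown to be above background.

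Of the SPARC pair, Sparcl1 rose and Sparc did not pass. Sparcl1 had a log2 expression of 9.62, 9.78 and 9.53 in the 4OHT arrays, against 8.95, 9.01 and 9.00 in the vehicle arrays. The groups did not overlap, and the 4OHT arrays were more spread (SD 0.13) than the vehicle arrays (SD 0.031). Sparcl1 rose 1.58-fold (log2 fold change 0.66, SE 0.070, adjusted p = 0.00220), the 124th largest rise. It passed under every alternative tried, with log2 fold changes of 0.59 to 0.71 when any array was left out. Sparc had a log2 expression of 13.64, 13.61 and 13.58 in the 4OHT arrays, against 13.59, 13.64 and 13.55 in the vehicle arrays, and the groups overlapped. Its log2 fold change was 0.02 (95% interval -0.09 to 0.12, adjusted p = 0.865), an interval that leaves out a rise of the size seen for Sparcl1. Sparc was much brighter than Sparcl1, and whether its difference was compressed was not tested. The difference between the log2 fold changes of Sparcl1 and Sparc was 0.64 (SE 0.076, exact two-sided permutation p = 0.1, adjusted 0.133). Among 6 further genes of the SPARC family, Smoc1 fell by 0.69 on the log2 scale (adjusted p = 0.000346) and Spock2 by 0.27 (0.0443), Smoc2 rose by 0.24 (0.0470), and Spock1, Spock3 and Fstl1 did not pass, with log2 fold changes of 0.02, -0.40 and -0.10. The call of Smoc2 was lost when any array but vehicle replicate 3 was left out, and that of Spock2 when any 1 array was left out. Spock1 and Spock3 lay under the median of 7.46 over all genes and were not shown to be above background.

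The thrombospondins lay lower by small amounts, none of which passed. Thbs1 had a log2 expression of 14.09, 14.08 and 14.09 in the 4OHT arrays, against 14.18, 14.21 and 14.12 in the vehicle arrays, and its log2 fold change was -0.08 (95% interval -0.18 to 0.02, adjusted p = 0.297). Thbs2 had a log2 expression of 13.62, 13.62 and 13.65 in the 4OHT arrays, against 13.79, 13.76 and 13.78 in the vehicle arrays. All 3 4OHT values of both genes lay below all 3 vehicle values. The log2 fold change of Thbs2, whose product restrains vessel growth and collagen fibril assembly, was -0.15 (95% interval -0.24 to -0.05, adjusted p = 0.0634). Thbs2 passed with array weights (adjusted p = 0.0491), among genes above the median level (0.0108) and with a trended and robust spread (0.000405). Thbs3 had a log2 expression of 9.75, 9.67 and 9.80 in the 4OHT arrays, against 9.96, 9.90 and 9.81 in the vehicle arrays. The lowest vehicle value of Thbs3 exceeded the highest 4OHT value by less than either group's SD (0.064 in 4OHT, 0.077 in vehicle), and its log2 fold change was -0.15 (adjusted p = 0.171). Thbs4 and Comp, the other genes of the family, had log2 fold changes of -0.15 and -0.23 (adjusted p = 0.0640 and 0.0734). Thbs4 lay under the median of 7.46 over all genes and was not shown to be above background. The log2 fold changes of Thbs2 and Thbs1 differed by -0.06 (SE 0.032, exact two-sided permutation p = 0.2, adjusted 0.2).

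Postn was the one gene of the 10 that fell. Its log2 expression was 13.17, 13.09 and 13.18 in the 4OHT arrays, against 13.48, 13.50 and 13.46 in the vehicle arrays, with no overlap. Postn fell by 0.33 on the log2 scale, 1.26-fold lower in 4OHT (SE 0.045, adjusted p = 0.00542), and its rank among falls was 909 of 22180 genes. It passed whichever array was left out (adjusted p from 0.0144 to 0.0306) and did not pass with the Benjamini-Yekutieli adjustment (0.0573). Tgfbi, whose product shares periostin's fasciclin domains, rose by 0.29 (adjusted p = 0.0295), a call lost when any array but vehicle replicate 3 was left out. The difference between the log2 fold changes of Postn and Tgfbi was -0.62 (SE 0.070, exact two-sided permutation p = 0.1, adjusted 0.133). The genes nearest to Postn in pattern were Prrx2, a mesenchymal homeobox factor gene, P4ha3, which encodes a collagen prolyl hydroxylase subunit, and Arhgef39. Their root mean square distances were 0.012, 0.013 and 0.016. The log2 fold changes of these genes were -0.34, -0.35 and -0.31, so the measure chose genes with a fall of like size. Arhgef39 lay under the median of 7.46 over all genes and was not shown to be above background.

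Fn1 and Spon1 complete the set. Fn1 had a log2 expression of 14.30, 14.27 and 14.26 in the 4OHT arrays, against 14.31, 14.30 and 14.25 in the vehicle arrays. The groups overlapped, and the log2 fold change was -0.01 (95% interval -0.11 to 0.09, adjusted p = 0.934). The highest value in the whole table was 14.55, so Fn1 and Thbs1 were read near the top of the array's range, and whether their differences were compressed was not tested. Sparc, Tnc, Thbs2 and Postn were bright too, and compression was not tested for them either. Spon1 had a log2 expression of 7.68, 7.55 and 7.72 in the 4OHT arrays, against 7.83, 7.95 and 7.88 in the vehicle arrays. The groups did not overlap, and the log2 fold change was -0.24 (95% interval -0.38 to -0.09, adjusted p = 0.0528). Spon1 passed with array weights (adjusted p = 0.0332), with arrays centred on their medians (0.0392), after a second quantile normalization (0.0353), among genes above the median level (0.0117) and with a trended and robust spread (0.0362). Its relative Spon2 fell by 0.47 on the log2 scale (adjusted p = 0.00500).

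Of 28 other matricellular and adhesive glycoprotein genes measured, 4 rose, 9 fell and 15 did not pass, with a median log2 fold change of -0.11. With arrays centred on their medians 1 was higher and 9 were lower, and Tgfbi, Smoc2 and Matn2 no longer passed. Ccn3, which encodes a matricellular protein of the CCN family, fell by 0.85, Npnt, which encodes nephronectin, a ligand of integrin alpha 8, by 0.52, and Emilin1, which encodes an elastic fibre glycoprotein, by 0.42. Mfap5, Ccn1 and Ccn4 fell by 0.19, 0.17 and 0.16, while the connective tissue growth factor gene Ccn2 stood at -0.04 (adjusted p = 0.579), and at 0.16 by its dimmer probe set. The calls of Mfap5, Ccn1 and Ccn4 were each lost when any 1 array was left out. The 4 that rose were Emilin2 (0.45), Tgfbi, Matn2 (0.24) and Smoc2. Without single arrays 5 or 6 genes were lower (5 without 4OHT replicate 1 or 2 or vehicle replicate 1 or 3, 6 without 4OHT replicate 3 or vehicle replicate 2). Smoc1, Ccn3, Npnt, Emilin1 and Spon2 were lower each time. These counts can include genes not called with all arrays: Comp and Spock3 newly passed in such a fit (adjusted p = 0.0303 and 0.0236). Spock3 was not shown to be above background. The number higher was 1 without 4OHT replicate 1 or 2 or vehicle replicate 2, 2 without 4OHT replicate 3 or vehicle replicate 1, and 3 without vehicle replicate 3. Emilin2 was higher each time, and the call of Matn2 was kept in 1 of the 6 fits.

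**Figure D3:**
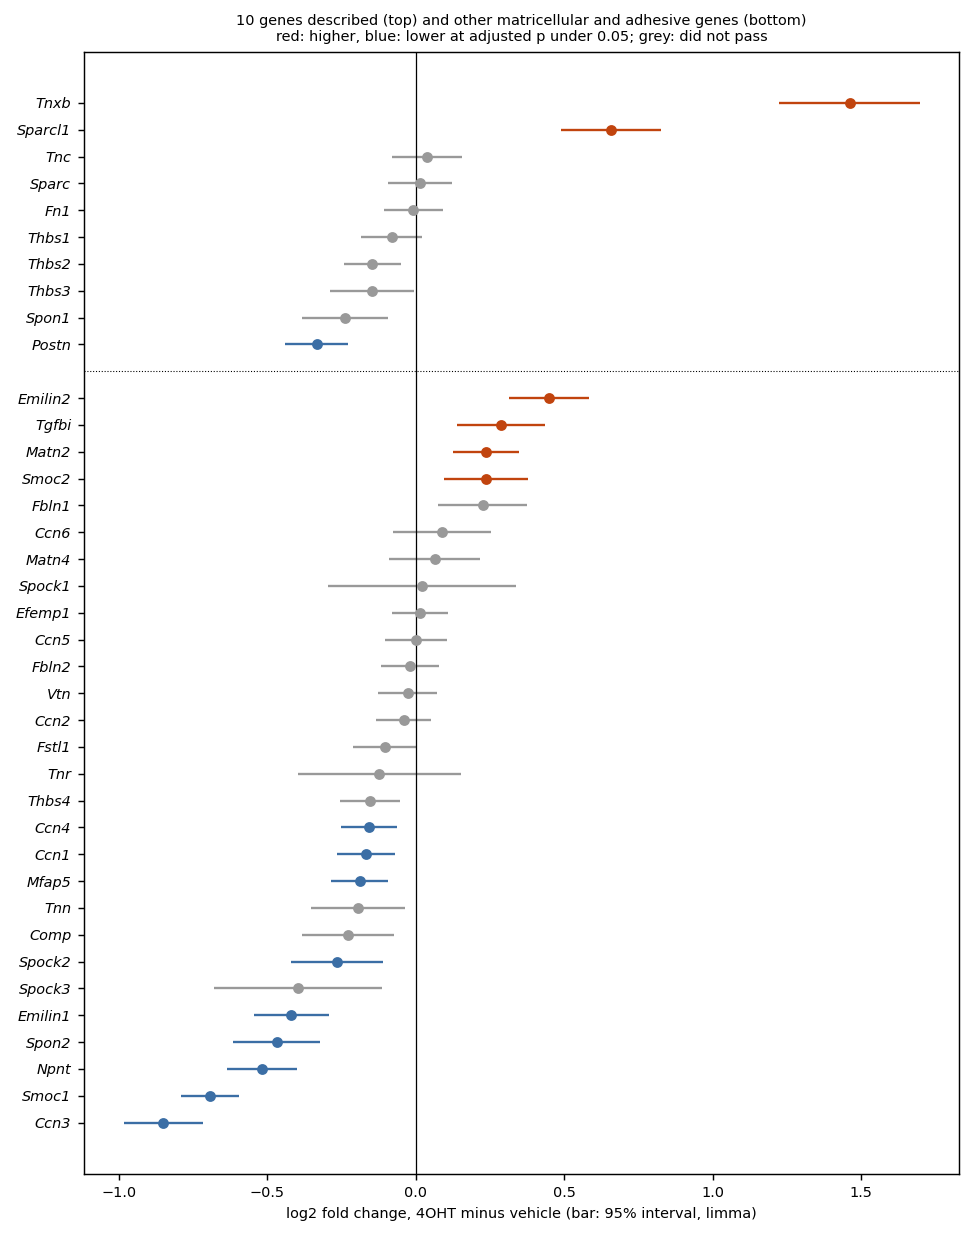
Log2 fold change (4OHT minus vehicle) with its 95% interval for the 10 genes described (top) and 28 other matricellular and adhesive genes (bottom), coloured where the adjusted p was under 0.05. Tnxb at 1.46 lies beyond every other gene plotted, and Ccn3 at -0.85 is at the other end.

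Among receptors of these proteins, 2 of 22 rose, 7 fell and 13 did not pass, with a median log2 fold change of -0.12. The integrin genes Itga11 and Itga8, whose products bind collagen and nephronectin, fell by 0.49 and 0.33, and Itga4 and Itga5, which encode fibronectin receptor chains, by 0.59 and 0.21. The syndecan genes Sdc4 and Sdc1 fell by 0.41 and 0.31. Cd47, the thrombospondin-1 receptor gene, rose by 0.23 (adjusted p = 0.0176) and Lrp1, which encodes an endocytic receptor that clears thrombospondins, by 0.31 (0.0362). Neither rise was called when 4OHT replicate 1 or 2 or any vehicle array was left out, and the fall of Itga5 was lost in those same cases (adjusted p 0.0391 to 0.0759 over the arrays left out). The fall of Sdc1 was lost without 4OHT replicate 2. By its dimmer probe set, at a mean level of 7.02, Sdc1 had a log2 fold change of -0.06. That level lay under the median of 7.46 over all genes. When probe sets were averaged within genes, 6 receptor genes were lower. Itga9, which encodes a tenascin-C receptor chain, stood at 0.07 (adjusted p = 0.550).

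Of 19 measured collagen and matrix assembly partners 5 fell, none rose and 14 did not pass (median log2 fold change -0.12). At an unadjusted p under 0.05 the number higher was 0. Col6a2, Col6a1, Col3a1 and Col12a1 fell by 0.49, 0.37, 0.29 and 0.34, and Tgm2, which encodes a transglutaminase that crosslinks fibronectin, by 0.37. The number lower was 3 without 4OHT replicate 2, vehicle replicate 1 or vehicle replicate 2. Col12a1 and Tgm2 did not pass in those cases, nor Tgm2 without vehicle replicate 3. Bmp1, which encodes a procollagen protease that periostin binds, and Lox, which encodes lysyl oxidase, had log2 fold changes of -0.12 and 0.04 (adjusted p = 0.168 and 0.593).

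Among genes of TGF-beta storage and activation, which thrombospondin-1 and integrins act on, 2 of 15 rose, 6 fell and 7 did not pass (median log2 fold change -0.12). Lrrc32, which encodes a cell-surface anchor of latent TGF-beta, and Tgfbr3, which encodes the co-receptor betaglycan, each rose by 0.74. The ligand gene Tgfb2 fell by 0.63, and the latent binding protein genes Ltbp4 and Ltbp2 by 0.39 and 0.36. Tgfb1 stood at 0.11 (adjusted p = 0.244). The number lower was 3 without 4OHT replicate 1 or 2 or vehicle replicate 1 or 2, and 4 without vehicle replicate 3.

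Of 17 protease and inhibitor genes that cut or protect these proteins, 4 rose, 2 fell and 11 did not pass (median log2 fold change 0.02). Mmp3, the stromelysin gene, rose 3.24-fold, and the cathepsin genes Ctsk and Ctsl and the plasminogen activator gene Plat rose by 0.51, 0.26 and 0.29 on the log2 scale. Mmp3 had a log2 expression of 8.17 in 4OHT and 6.48 in vehicle wells. The vehicle level of Mmp3 lay under the median of 7.46 over all genes. It was not shown to be above background, so the size of the rise is uncertain. The call of Plat was lost when any array but 4OHT replicate 3 was left out (adjusted p 0.0456 to 0.0949), leaving 3 genes higher. Adamts1, whose product cuts thrombospondins, fell by 0.69 and Plau by 0.58.

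Of 16 regulators of matrix genes that act through SRF, YAP or mesenchymal homeobox factors, 1 rose, 4 fell and 11 did not pass (median log2 fold change -0.06). Egr1, Prrx2, Mrtfa and Srf fell by 0.39, 0.34, 0.23 and 0.25, and Mrtfb rose by 0.24. The number lower was 2 and the number higher was 0 when any array but 4OHT replicate 3 was left out, where Mrtfa, Srf and Mrtfb did not pass. Mrtfb did not pass with centred arrays either (adjusted p = 0.0510). Yap1 and Prrx1 had log2 fold changes of 0.07 and -0.05 (adjusted p = 0.357 and 0.481). Gli1, the usual readout of hedgehog signalling, rose by 0.35 (adjusted p = 0.0167), a call lost when any vehicle array was left out (0.0538 to 0.0543). Its log2 expression of 6.81 in 4OHT and 6.46 in vehicle wells lay under the median of 7.46 over all genes. Gli1 was not shown to be above background, so the size of its rise is uncertain.

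**Figure D4:**
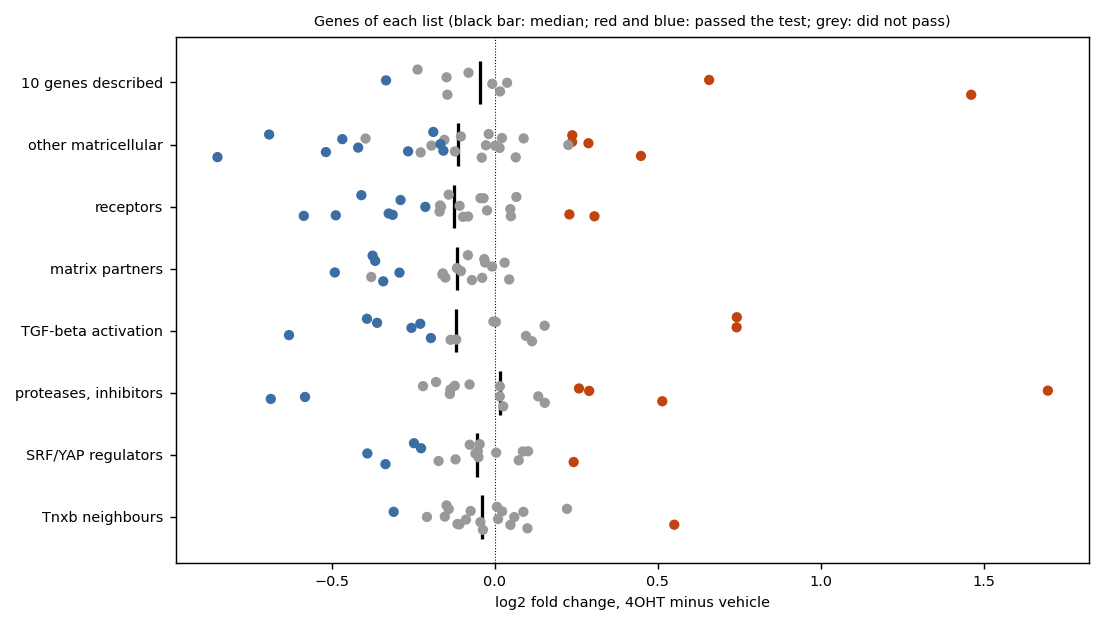
Log2 fold change (4OHT minus vehicle) of every measured gene of each list, 1 point per gene, with the list median as a black bar and points coloured where the adjusted p was under 0.05. The medians lie between -0.12 and 0.02, and Tnxb (1.46) and Mmp3 (1.70) are the points farthest right.

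Fibroblast markers were present in all wells. Col1a1 had a log2 expression of 13.71 in 4OHT and 13.74 in vehicle wells, Dcn of 13.46 and 13.47, and 2 of 10 such markers (Fap and Dpt) were lower. Markers of other cell types also differed between the groups. Of 10 smooth muscle and pericyte markers 8 fell and none rose (0 higher at an unadjusted p under 0.05), and their summed linear level was 46648 to 48719 in 4OHT against 58349 to 59118 in vehicle arrays. Of 10 endothelial markers 4 fell (Erg, Cdh5, Emcn and Pecam1) and 2 rose (Tek and Kdr), with sums of 1731 to 1746 in 4OHT against 2538 to 2703 in vehicle arrays. Erg alone made up 81.3% of that difference, and without it the sums were 996 to 1032 in 4OHT against 1136 to 1225 in vehicle arrays. Kdr did not pass with centred arrays (adjusted p = 0.145) or when any 1 array was left out. Emcn, Pecam1 and Tek lay under the median of 7.46 over all genes and were not shown to be above background. Their log2 expression was 5.84, 6.60 and 6.66 in 4OHT and 6.76, 6.96 and 6.24 in vehicle wells. Of 10 mesothelial markers 5 fell (Lrrn4, Upk3b, Rspo1, Bnc1 and Krt7) and 1 rose (Msln), with sums of 34809 to 35738 in 4OHT against 38529 to 39010 in vehicle arrays, of which Upk3b made up 66.0% of the difference. Without Upk3b the sums were 28375 to 29120 in 4OHT against 29684 to 30310 in vehicle arrays. Upk3b had a log2 expression of 12.69 in 4OHT and 13.10 in vehicle wells. Upk1b, the brightest of these markers, stood at 13.56 in 4OHT and 13.49 in vehicle wells, and Wt1 at 10.58 and 10.57, and neither passed. Of 10 leukocyte markers 1 rose (Cd68) and 1 fell (Lyz2), and of 10 epithelial markers 1 fell (Krt8). Cd68, Lyz2 and Krt8 had log2 expression of 9.19, 10.03 and 9.81 in 4OHT and 8.71, 10.27 and 10.14 in vehicle wells. Krt18 stood at 9.27 in 4OHT and 9.10 in vehicle wells and did not pass (adjusted p = 0.162). Ptprc and Epcam were dimmer, with log2 expression of 5.35 and 5.11 in 4OHT and 5.27 and 5.09 in vehicle wells. Without single arrays 8 smooth muscle and pericyte markers were lower each time and 1 endothelial marker was higher each time. Lower endothelial markers numbered 2 without 4OHT replicate 2, and lower mesothelial markers numbered 3 without 4OHT replicate 2 or vehicle replicate 1 or 2. The call of Krt7 was lost when any 1 array was left out. Over the 6 arrays left out, that of Lyz2 was kept 1 time, that of Bnc1 3 times and those of Msln, Pecam1 and Emcn 4 times each. RMA gives no value of 0, so none of the markers is listed at 0. The part of these cell types in the falls of Postn and its partners and in the rises of Tnxb and Sparcl1 was not tested.

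The arrays were alike, with Pearson's r across genes, which are not independent replicates, of 0.997 to 0.998 within groups and 0.995 to 0.996 between groups, and none stood apart. With 3 arrays a group, precision is limited by their number.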

How the data were processed

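Total RNA (100 ng per reaction) was primed with an oligo(T) primer, amplified and biotinylated for single-colour Affymetrix arrays, per the labels' protocols. The values deposited for the 6 arrays are log2 expression of probe sets. Oligo, RMA and limma appear in the submitters' processing notes without versions. RMA subtracts background, equalizes the arrays' distributions and summarizes probes on the log2 scale. A shift of all genes would thus be largely removed, and dim probe sets are compressed. The medians of the deposited arrays over all probe sets still ran from 6.70 to 6.78, so small log2 fold changes depend on the centring. The sources used here do not give the authors' genome build, so RefSeq (GRCm38.p6) served for names, gene order and promoter sequences.

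Of 41345 probe sets, 23521 with 1 gene symbol were used, and the brightest represented each gene (22180 genes). Each gene described had 1 probe set. Older list symbols were updated through RefSeq synonyms. 4OHT (n = 3) and vehicle (n = 3) were compared by limma 3.58.1 under R 4.3.3 (lmFit, eBayes, two-sided, 6.70 degrees of freedom), with Benjamini-Hochberg adjustment over all genes and a call at an adjusted p under 0.05. Every adjusted p printed is from that test unless an alternative is named. All 10 genes lay above the median level, and no filter was set. The test was tried on simulated data.

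The genes and lists were chosen with earlier results of these data known. The text names all 10 genes, up to 4 genes of smallest p per list, all called genes of a list where 5 or fewer went one way, the 3 nearest in pattern to the member with the largest rise and to that with the largest fall (leaving out predicted, small RNA and receptor family genes), and Gli1. Relatives of the 10 genes, neighbours next to Tnxb and pathway genes named beyond that rule were chosen after their values were seen. Alternatives were the replicate block, median centring, quantile normalization, a filter at the median level, averaging of probe sets, a fit over all probe sets, a trended and robust spread, array weights, stricter thresholds, Benjamini-Yekutieli adjustment and leaving out each array.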

Additional observations from a re-analysis of the deposited data

How the results depend on the processing

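Tnxb and Sparcl1 were called under every alternative tried, and 2 of the 10 genes were higher under each. The number lower was 1 whichever array was left out, 0 with the Benjamini-Yekutieli adjustment and 0 with a 1.5-fold threshold, 2 with arrays centred on their medians or quantile normalized again, 3 with array weights or among genes above the median level, and 4 with a trended and robust spread, where Thbs1 also passed (adjusted p = 0.0332). The median log2 fold change of the 10 genes was -0.0852 with centred arrays and between -0.0654 and -0.0312 without single arrays. Genes near 0 changed sign: Tnc was at -0.0033 and Sparc at -0.025 with centred arrays, Sparc at -0.0032 and Fn1 at 0.020 after a second quantile normalization, Sparc at -0.0052 without vehicle replicate 3 (-0.0052 to 0.0396 over the arrays left out), and Fn1 at 0.0002 without 4OHT replicate 3 and 0.0045 without vehicle replicate 1 (-0.0265 to 0.0045 over the arrays left out). Spock1 was at -0.0444 with array weights, -0.0192 with centred arrays, -0.0222 after a second quantile normalization and -0.1387 to 0.1187 without single arrays, Tnr at -0.1924 to 0.0143 without single arrays, and Ccn2 at 0.0601 by the mean of its probe sets. Of 1654 values for 98 genes across the alternatives, 1290 kept their direction and side of the threshold, 329 no longer passed, 22 newly passed and 13 changed sign. Of all genes 2662 were called, 659 with the Benjamini-Yekutieli adjustment, 1389 over all probe sets, 4123 with a trended and robust spread, 1010 at an adjusted p under 0.01, 463 with the 1.5-fold threshold and 1220 to 2326 without single arrays (1473 and 1220 without 4OHT replicates 1 and 2, 1585 and 1336 without vehicle replicates 1 and 2). With the replicate number as a block 1568 were called, and 2 of the 10 genes were higher and 1 lower, as without it, while 1 of the 28 other matricellular genes was higher and 5 lower. Same-numbered arrays' deviations from their group means correlated at 0.062, -0.024 and 0.043 across genes. 4OHT replicates 1 and 3 correlated best with the vehicle array of their own number, and 4OHT replicate 2 with vehicle replicate 3 (0.031). The labels do not say that the numbers pair wells and these correlations were small, so the numbers were not taken to pair them. The cause of each change was not tested, other than fewer arrays, a stricter threshold or adjustment, or a different number of tests. The wells give no spread between animals.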
